A study of Gallus gallus with 22 samples.

Results

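The jejunum was set against the pancreas in broilers on the control diet, using 11 of the 22 libraries of the series: 5 of the jejunum and 6 of the pancreas, chosen by their labels. The broilers were male chickens of a fast-growing commercial meat strain, and both groups had eaten a coarsely ground corn diet without sugarcane bagasse (SB), the fibrous residue of pressed sugarcane, until sampling on d 24. The remaining 11 libraries, 6 of the jejunum and 5 of the pancreas, came from broilers given 2% SB and were used only to repeat the tissue comparison. Libraries of mRNA were made from total RNA of whole tissue, so that fewer cells of a type and less RNA per cell cannot be told apart, and the authors had excluded outlier samples before deposit. Both tissues were taken from 1 broiler of each pen, by the study's methods, and the column names in the labels share a number between 5 libraries of each tissue. The labels do not say what that number stands for, so all 11 libraries were treated as separate samples, with the number as a block in an alternative fit.

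The jejunum is the part of the small intestine where most nutrients are taken up, by absorptive cells whose brush border of microvilli carries digestive enzymes and transporters, with goblet cells that secrete mucus between them. The pancreas is mostly made of acinar cells, which synthesise digestive enzymes in bulk and pass them through ducts to the intestine, and it also holds hormone-secreting islets. A tissue that devotes its RNA to a few secreted proteins leaves a smaller share of each library for all other genes.

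Counts came with Ensembl identifiers of 17007 genes and without names. Symbols could be attached to 121 identifiers, through the study's supplementary lists of genes that differed between the diets, and these 121 genes are the only ones named here. Of the 296 entries on 21 lists of cell type markers and pathways drawn up for both tissues, only 7 could be matched: *MYO7B*, *SLC9A3*, *AGR2*, *TFF3*, *GAL3ST2*, *SCTR* and *GHRL*. Digestive enzyme, acinar and islet markers of the pancreas were not analysed here. Expression is given as normalised counts-per-million values (CPM), with TMM scaling (factors from a trimmed mean of log ratios between libraries) and without division by gene length, so a level is compared between tissues and not between genes. Log2 fold changes are jejunum minus pancreas.

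Total counts ranged from 42998544 to 54841516 per jejunal library and from 65957320 to 166039437 per pancreatic library. The mean clean reads that the study reports for both control groups are far below these totals, which the sources used here do not explain. Between 15375 and 15464 genes had at least 1 count in a jejunal library, against 14699 to 15554 in a pancreatic library. Pearson correlations of log2 CPM, which are descriptions across genes and not tests, lay between 0.961 and 0.984 for the 10 pairs of jejunal libraries and between 0.918 and 0.970 for the 15 pancreatic pairs. For the 30 pairs of 1 jejunal and 1 pancreatic library they were 0.677 to 0.748, so every pair within a tissue was more alike than any pair across tissues. The first principal component carried 79.1% of the variance and separated the tissues, whereas the second, with 7.84%, spread the pancreatic libraries, with replicates 2, 4 and 6 on one side and replicates 1, 3 and 5 on the other.

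The pancreatic libraries were filled by very few genes. A gene without a symbol, ENSGALG00010011790, was the most abundant in all 6 and took 22.3%, 15.3%, 22.6%, 18.7%, 25.1% and 18.6% of their counts. The same gene took 0.0000623% to 0.000348% of the counts of a jejunal library. In the jejunum, ENSGALG00010007977 led 4 of the 5 libraries, and its share there was 1.90%, 1.48%, 1.40%, 0.704% and 1.58% across replicates 1 to 5, against 0.0000501% to 0.0171% in the pancreas. Each gene was thus still counted in every library of the other tissue. The leading pancreatic gene had 34 to 157 counts in a jejunal library. ENSGALG00010007977 had from 38 counts in pancreatic replicate 1 to 28310 of the 31836 pancreatic counts in replicate 6.

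The 10 most abundant genes of each library together held 6.91%, 6.04%, 6.18%, 3.77% and 6.48% of the jejunal counts. In the pancreas the corresponding shares were 61.8%, 51.6%, 57.0%, 52.1%, 59.9% and 53.8%. The mean was 5.87% ± 1.22 (SD, n = 5) in the jejunum and 56.1% ± 4.22 (SD, n = 6) in the pancreas, and the groups did not overlap (exact permutation test, two-sided, p = 0.00216, the smallest that the splits of these 11 libraries can give). This and the other permutation tests took the 11 libraries as separate samples and ignored any pairing by broiler. For the 100 most abundant genes the means were 17.9% in the jejunum and 74.8% in the pancreas (exact permutation p = 0.00216). The tissues shared 0 of their 10, 13 of their 100 and 162 of their 500 most abundant genes by mean level.

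Seen from the other end, 991 to 1268 genes were needed to reach 50% of the counts of a jejunal library and 7 to 10 in a pancreatic one (means 1065 ± 115, n = 5, and 8.5 ± 1.38, n = 6; SD, exact permutation test on the log2 numbers, p = 0.00216). To reach 90%, the jejunum needed 5545 to 6013 genes and the pancreas 1463 to 3032, again without overlap (exact permutation p = 0.00216). Within the jejunum, replicate 4 was the least concentrated, with 1268 genes for 50% of its counts against 991 to 1039 in the other jejunal libraries. Within the pancreas, replicates 2, 4 and 6 needed more genes for 90% of their counts (3032, 2939 and 2482) than replicates 1, 3 and 5 (1733, 1871 and 1463).

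**Figure D1:**
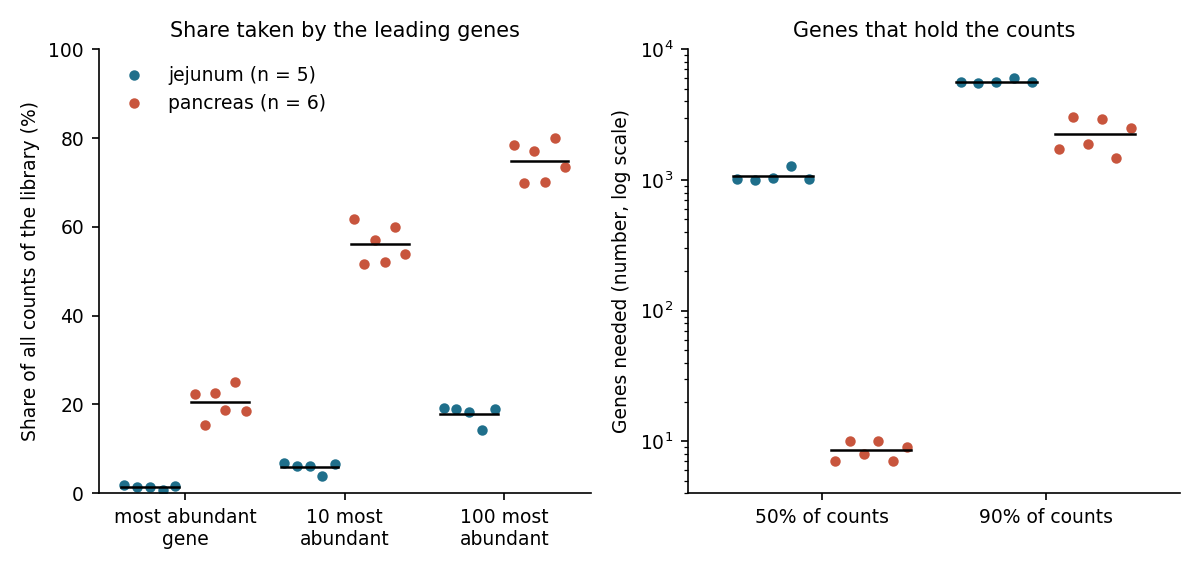
Left: share of all counts (%, linear axis) taken by the most abundant gene, the 10 and the 100 most abundant genes of each library, with jejunum (5 points) left of pancreas (6 points) and the mean as a bar. Right: number of genes (log axis) that hold 50% and 90% of the counts. The top 10 took 3.77% to 6.91% of a jejunal library and 51.6% to 61.8% of a pancreatic one.

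Of 14574 genes with enough counts to test, 9751 differed between the tissues at an adjusted p under 0.05 (66.9%; edgeR quasi-likelihood test, Benjamini-Hochberg). Expression was higher in the jejunum for 5013 genes (34.4%) and higher in the pancreas for 4738 (32.5%). With a difference of at least 2-fold added, 2949 genes (20.2%) were higher in the jejunum and 2725 (18.7%) in the pancreas. The ranges of the 2 tissues did not overlap for 7249 genes (49.7%), of which 3819 (26.2%) were higher in the jejunum and 3430 (23.5%) in the pancreas. Among the 8407 genes whose jejunal and pancreatic means averaged at least 10 CPM, the median SD of log2 CPM was 0.180 in the jejunum and 0.220 in the pancreas. For 3550 of them (42.2%) the tissue difference exceeded 3 times the larger SD.

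The even split of the calls depends on the scaling. When counts were scaled by library totals alone, log2 fold changes moved toward the jejunum by a median of 1.56, and 11472 genes were called higher in the jejunum and 940 higher in the pancreas, that is 92.4% and not 51.4% of the calls on the jejunal side. With upper-quartile factors the jejunal part was 43%. Of the 1126 genes called with at least a 10-fold difference, 1117 kept their call and direction with library totals. The median shift was smaller than a 10-fold difference, so few directions could turn. Whether these differences stayed at least 10-fold was not counted. A moderately higher level in the pancreas is therefore given relative to the bulk of genes and not per unit of RNA.

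With TMM scaling, which sets the bulk of genes near a log2 fold change of 0, most differences were small and the tails were unlike. The log2 fold change was within 1 of 0 for 8620 genes, its quartiles were -0.73 and 0.79, and the median was 0.02. With library totals the median was 1.58, and 10127 genes were called at least 2-fold higher in the jejunum and 726 in the pancreas. The sizes and the counts by fold given here are therefore those of TMM scaling. At the 4-fold level, 1511 genes were higher in the jejunum and 1209 in the pancreas, and at the 10-fold level 656 (4.50%) were higher in the jejunum and 470 (3.22%) in the pancreas. Past 100-fold, 109 genes were higher in the jejunum and 108 in the pancreas, whereas past 1000-fold 5 were higher in the jejunum and 49 in the pancreas. The most extreme fitted values were 13.67 on the jejunal and -19.31 on the pancreatic side. The jejunal and pancreatic means averaged above 1000 CPM for 38 genes. Of these, 6 were called higher in the jejunum (34.4% of all genes) and 31 in the pancreas (32.5% of all genes), and 32 differed at least 10-fold. A gene could pass this cut by its level in 1 tissue. TMM factors of 0.474 to 0.754 raised CPM in the pancreas, and factors of 1.73 to 2.04 lowered CPM in the jejunum. The cut thus favoured pancreatic genes, and these counts are no independent measure.

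**Figure D2:**
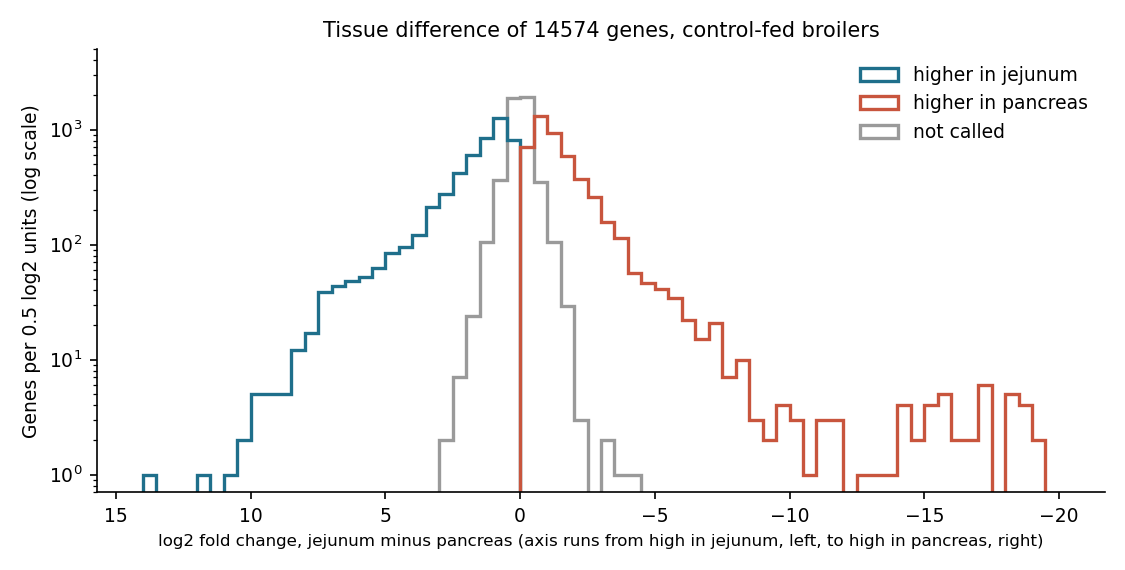
Number of genes (log axis) per 0.5 units of log2 fold change, jejunum minus pancreas, for all 14574 genes tested; positive values, higher in the jejunum, lie to the left. Lines separate genes called higher in the jejunum, called higher in the pancreas, and not called. The pancreatic side reaches -19.31 and holds 49 genes past 1000-fold, against 5 on the jejunal side.

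The 12 genes of highest mean level in each tissue were then followed into the other tissue. The 12 pancreatic ones, none of them with a symbol, took 55.2% to 65.2% of the counts of a pancreatic library and 0.000737% to 0.00354% of a jejunal one. All 12 were called higher in the pancreas (32.5% of all genes), with log2 fold changes from -19.31 to -13.16. The 12 jejunal ones, also without symbols, took 3.98% to 7.40% of a jejunal library and 0.128% to 0.316% of a pancreatic one. Of these, 11 were called higher in the jejunum (34.4% of all genes) and 1 higher in the pancreas, with log2 fold changes between -0.65 and 8.87. Both sets were chosen on their level in the same libraries that were tested, so their calls are no independent measure.

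Genes counted in only 1 tissue were few. Any count in the jejunum and none in the pancreas was found for 197 genes, and the reverse for 251. In every jejunal library and no pancreatic one there were 23 genes, and in every pancreatic library and no jejunal one 9. After thinning all libraries to the smallest, 245 genes were counted only in the jejunum and 223 only in the pancreas, and 33 and 10 were in every library of that tissue alone. Thinning equalised the totals and not the counts left for scarce genes. The 100 most abundant genes held a mean of 17.9% of the jejunal and 74.8% of the pancreatic counts. Every library also means 5 in the jejunum and 6 in the pancreas. ENSGALG00010023495 had 0 counts in the jejunum and 186990 in the pancreas (566 ± 143 CPM, SD, n = 6), where a floor of 3 counts over the jejunal libraries makes it at least 83700-fold lower in the jejunum. ENSGALG00010008114 had 2756 counts in the jejunum (6.49 ± 5.61 CPM, SD, n = 5) and 0 in the pancreas, at least 710-fold higher in the jejunum by the same floor, or 454-fold without jejunal replicate 5, which held 1206 of the counts. If both mates of a read pair were counted, which the sources used here do not say, these bounds are too high.

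At the other extreme, 513 genes had a mean of at least 100 CPM in both tissues. The 6 of them with the smallest tissue difference, all without symbols, had means of 111 to 229 CPM in the jejunum and 111 to 227 CPM in the pancreas, with log2 fold changes between -0.01 and 0.01. Standard reference genes were not analysed here.

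Among the 121 genes with a symbol, 114 passed the filter on low counts, and 47 of them (41.2%, where 34.4% of all genes were called) were higher in the jejunum, 38 (33.3%, against 32.5%) were higher in the pancreas and 29 did not pass the test. At least a 10-fold difference was reached by 27 in the jejunum (4.50% of all genes) and 14 in the pancreas (3.22%). Their median log2 fold change was 0.69, beside 0.02 over all genes tested. The 7 that did not pass the filter were *CHIR-B3*, *DNAJB8*, *LOC100857292*, *OTOF*, *OVST*, *PITX3* and *TTC24*. *DNAJB8*, of a family of co-chaperones, had 0 counts in the jejunum and 514 in the pancreas, at least 253-fold lower in the jejunum by the floor of 3 counts. Pancreatic replicates 3 and 4 held 155 and 314 of those counts, and without replicate 4 the bound was 131-fold. Because these symbols come from lists chosen on the diet difference in partly the same libraries, the shares describe those lists and not the tissues.

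These lists are described by count only, and the shares of all genes to read them against are 34.4% called higher in the jejunum and 32.5% called higher in the pancreas. Of the 81 tested genes that the study lists as higher with SB in the pancreas, symbol or not, 46 (56.8%) were higher in the jejunum and 20 (24.7%) higher in the pancreas of control-fed broilers, with a median log2 fold change of 1.93. Of the 34 listed as higher on the control diet in the pancreas, 3 (8.82%) were higher in the jejunum and 19 (55.9%) in the pancreas, with a median of -1.41. These lists were chosen on the level in the same control pancreas libraries, so the medians are no independent measure. In the list for the jejunum, of 21 genes higher with SB 1 (4.76%) was higher in the jejunum and 9 (42.9%) in the pancreas (median -1.06), and of 17 higher on the control diet 5 (29.4%) were higher in the jejunum and 4 (23.5%) in the pancreas (median 0.40). The jejunal list was likewise chosen on the level in the same control jejunum libraries, so its shares and medians are no independent measure either. Among the 44 genes that the study discusses by name, 43 were tested. Of these, 11 (25.6%, against 34.4% of all genes) were called higher in the jejunum and 16 (37.2%, against 32.5%) higher in the pancreas, while 16 were not called. A difference of at least 10-fold was reached by 5 of the 43 in the jejunum (4.50% of all genes) and 5 in the pancreas (3.22% of all genes).

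**Figure D3:**
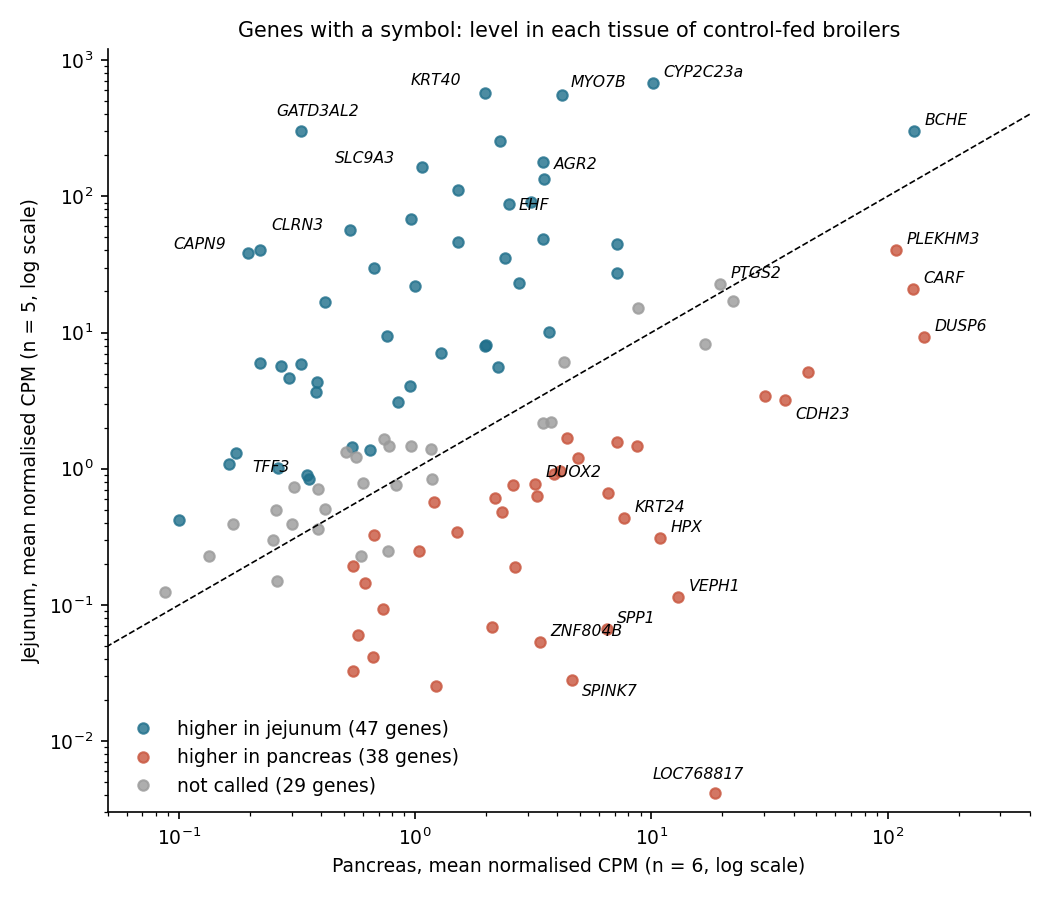
Mean normalised CPM in the jejunum (vertical, n = 5) against the pancreas (horizontal, n = 6) for the 114 tested genes with a symbol, both axes on a log scale; the dashed line marks equal levels. Points far above the line, such as *KRT40* (569 CPM in the jejunum and 1.98 CPM in the pancreas) and *MYO7B* (551 CPM in the jejunum and 4.19 CPM in the pancreas), were jejunal, and points far below it, such as *VEPH1* (0.115 CPM in the jejunum and 13.0 CPM in the pancreas), pancreatic.

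The absorptive cell genes that could be matched, *MYO7B* and *SLC9A3*, were both higher in the jejunum. Both have a symbol through the study's list of genes higher with SB in the pancreas. That list was chosen on these same control pancreas libraries, so they are no independent check of the label. In SB-fed broilers their log2 fold changes were 5.23 and 4.95. *MYO7B* (chromosome 9, 944922 to 996538, RefSeq annotation of GRCg7b) encodes a myosin at the tips of brush border microvilli. It had 550, 555, 649, 405 and 597 CPM in the jejunum, against a lowest value of 1.14, a median of 3.38 and a highest of 11.4 CPM in the pancreas. Every jejunal library was far above every pancreatic one (log2 fold change 7.03 ± 0.59, SE, adjusted p = 8.98e-07, edgeR).

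*SLC9A3* (chromosome 2, 55391772 to 55458047) encodes the apical sodium/hydrogen exchanger of absorptive epithelium. Its level was 205, 143, 182, 73.5 and 216 CPM in the jejunum, against 0.158, 1.01 and 2.18 CPM (lowest, median, highest) in the pancreas. The log2 fold change was 7.22 ± 0.68 (SE, adjusted p = 2.31e-06, edgeR), with jejunal replicate 4 the lowest of its group. *SLC9A4*, a related exchanger, had 2.93 to 6.03 CPM in the jejunum and 0.0742 to 0.802 CPM in the pancreas, also without overlap (3.98 ± 0.51, adjusted p = 2.69e-05, edgeR). In SB-fed broilers the *SLC9A4* difference was 0.87 and not called (adjusted p = 0.302, edgeR).

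Of the 8 tested genes for microvilli, cadherin links and cell contacts, 4 were higher in the jejunum, 3 in the pancreas and 1 was not called (5, 2 and 1 with library totals), beside 34.4% and 32.5% of all genes called higher in the jejunum and in the pancreas. *KRT40*, a keratin, had 616, 652, 750, 258 and 570 CPM in the jejunum and 0.126, 1.51 and 6.13 CPM (lowest, median, highest) in the pancreas. *CLRN3*, of the clarin family of membrane proteins, had 42.7 to 81.8 CPM in the jejunum and 0.189 to 0.936 CPM in the pancreas, and *COL17A1*, a collagen of hemidesmosomes, 47.7 to 86.6 CPM in the jejunum and 0.401 to 1.69 CPM in the pancreas. These 3 genes did not overlap between the tissues (log2 fold changes 8.13, 6.70 and 6.13). On the other side, *CDH23*, a cadherin known for the tip links of sensory hair cells, had 2.24, 3.46, 2.13, 4.62 and 3.45 CPM in the jejunum and 14.3, 29.3 and 72.7 CPM (lowest, median, highest) in the pancreas. *KRT24*, another keratin, had 0.276 to 0.589 CPM in the jejunum and 4.64 to 12.2 CPM in the pancreas, and *AJAP1*, an adherens junction protein, was also higher in the pancreas (-2.28 ± 0.52, adjusted p = 0.00205, edgeR), though not with library totals (-0.88, adjusted p = 0.178).

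A group of 10 genes held ion channels, exchangers and ion transporters together with a carbonic anhydrase and a phospholipid flippase. In it 7 genes were higher in the jejunum (34.4% of all genes), 0 were higher in the pancreas (32.5% of all genes) and 3 were not called (median log2 fold change 3.26), while with library totals all 10 were called higher in the jejunum. Besides the exchangers, the group included *CA7*, a carbonic anhydrase, with 64.0, 61.7, 38.0, 39.5 and 29.6 CPM in the jejunum and 0.496, 0.75 and 5.31 CPM (lowest, median, highest) in the pancreas. *ATP10B*, a phospholipid flippase, had 90.6 to 136 CPM in the jejunum and 0.126 to 2.96 CPM in the pancreas. *RYR2*, a calcium release channel best known from heart muscle, had 23.8 to 49.1 CPM in the jejunum and 1.6 to 3.94 CPM in the pancreas. The ranges of all of these were apart, and the fitted log2 fold changes were 4.90, 6.19 and 3.87. *SCN3B*, a sodium channel subunit, differed less, with 5.92 to 17.7 CPM in the jejunum and 2.25 to 5.88 CPM in the pancreas (1.46 ± 0.32, adjusted p = 0.00164, edgeR). Among the 3 not called, *KCND3* and *TRPM3*, which encode a potassium and a cation channel, were below 1 CPM in every library, and *SLC12A5*, a potassium/chloride cotransporter, had 1.44 to 2.68 CPM in the jejunum and 1.43 to 6.65 CPM in the pancreas.

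Of 6 other membrane transporters, 3 were higher in the jejunum (34.4% of all genes), 2 higher in the pancreas (32.5% of all genes) and 1 not called (4, 1 and 1 with library totals). *SLC22A13L*, annotated as like an organic anion transporter, had 17.3 to 60.3 CPM in the jejunum and 0.0316 to 0.630 CPM in the pancreas. *ABCB5*, an ABC transporter, had 14.9 to 36.1 CPM in the jejunum and 1.90 to 3.68 CPM in the pancreas. *SLC28A3*, a nucleoside transporter, lay the other way, with 0 to 0.0737 CPM in the jejunum and 0.221 to 0.980 CPM in the pancreas. *SLC16A4*, of the monocarboxylate transporter family, had 1.03 to 1.66 CPM in the jejunum and 0.474 to 2.54 CPM in the pancreas and did not pass the test (0.24 ± 0.36, adjusted p = 0.577, edgeR).

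A group of 10 proteases, esterases, ectoenzymes and 1 cytochrome P450 had 7 genes higher in the jejunum (34.4% of all genes) and 3 higher in the pancreas (32.5% of all genes), except that *DPP6* lost its call with library totals (-0.58, adjusted p = 0.179, edgeR). The calpains *CAPN9* and *CAPN8*, calcium-dependent proteases enriched in the gut of mammals, had 17.3 to 46.9 and 17.1 to 27.2 CPM in the jejunum, against 0 to 0.483 and 0.204 to 1.61 CPM in the pancreas. *ADAM28*, of the ADAM metalloproteases, varied little within the jejunum, with 131, 150, 139, 121 and 133 CPM in the jejunum and 1.42, 3.41 and 6.04 CPM (lowest, median, highest) in the pancreas (5.25 ± 0.30, adjusted p = 4.26e-08, edgeR). A wider spread was seen for *CYP2C23a* (chromosome 6, 18351042 to 18358414), the cytochrome P450, with 1178, 351, 611, 115 and 1143 CPM in the jejunum, against 4.69, 8.43 and 23.6 CPM in the pancreas (6.06 ± 0.66, adjusted p = 7.14e-06, edgeR). Even its lowest jejunal library, replicate 4, was above all 6 pancreatic ones.

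*BCHE*, butyrylcholinesterase, was well counted in both tissues. It had 376, 251, 364, 119 and 392 CPM in the jejunum and 56.4, 139 and 180 CPM (lowest, median, highest) in the pancreas. Jejunal replicate 4 lay within the pancreatic range, so the groups overlapped although the gene was called (1.21 ± 0.33, adjusted p = 0.0062, edgeR). The 3 pancreatic members were *MMP7*, a matrix metalloproteinase, *LVRN*, an aminopeptidase, and *DPP6*, a dipeptidyl peptidase relative that acts on potassium channels. *LVRN* had 0.513 to 0.850 CPM in the jejunum and 3.47 to 9.22 CPM in the pancreas, and *MMP7* 0.0205 to 0.410 CPM in the jejunum and 0.520 to 6.02 CPM in the pancreas, both without overlap.

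Among 9 tested genes for mucus and secreted epithelial proteins, 3 were higher in each tissue and 3 not called, close to the shares of all genes (34.4% and 32.5%), and with library totals 6 were higher in the jejunum and 3 in the pancreas. *AGR2* (chromosome 2, 28469531 to 28473603), needed in mice for the processing of mucin in goblet cells, had 111, 181, 234, 138 and 223 CPM in the jejunum and 1.6, 3.16 and 7.44 CPM (lowest, median, highest) in the pancreas. The groups were wide apart (5.66 ± 0.43, adjusted p = 3.75e-07, edgeR). *TFF3*, a trefoil peptide secreted with mucus in the mammalian intestine, was by contrast scarce in both tissues, with 0.663, 2.17, 0.534, 0.504 and 0.368 CPM in the jejunum and 0.201, 0.380 and 0.447 CPM (lowest, median, highest) in the pancreas. Its call (1.26 ± 0.46, adjusted p = 0.0299, edgeR) rested on jejunal replicate 2, without which it was 0.55 (adjusted p = 0.119, edgeR), and it was also lost without pancreatic replicate 2 (1.13, adjusted p = 0.0608) or 6 (1.27, adjusted p = 0.0513). The call was likewise absent with the column number (1.03, adjusted p = 0.128, edgeR) or the title number (0.99, adjusted p = 0.152) as a replicate block, with upper-quartile factors (1.09, adjusted p = 0.0518) and in limma-voom (0.97, adjusted p = 0.103). *GAL3ST2*, which sulfates sugars of mucin-type chains, was below 0.5 CPM in every library and not called. Of the 3 goblet cell genes that could be matched, only *AGR2* therefore stood out in the jejunum under every leave-one-out fit.

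The genes for secreted proteins *SPP1*, *AvBD10*, *SPINK7* and *HPX* were picked as examples from those higher in the pancreas, as 32.5% of all genes were. *GHRL*, *MMP7*, *WNT7A* and *WNT9A* were higher there too, whereas *AGR2*, *SOSTDC1*, *FGFBP1* and, by the call given above, *TFF3* were higher in the jejunum. *FGFBP1* had 11.6 to 52.9 CPM in the jejunum and 0.149 to 1.75 CPM in the pancreas, without overlap (5.42 ± 0.70, adjusted p = 3.11e-05, edgeR). *SPP1*, osteopontin, had 0, 0, 0.0821, 0.252 and 0 CPM in the jejunum and 3.86, 5.67 and 9.78 CPM (lowest, median, highest) in the pancreas (-6.50 ± 0.85, adjusted p = 3.52e-05, edgeR). *AvBD10*, an avian beta-defensin, had 0 to 0.211 CPM in the jejunum and 0.705 to 4.01 CPM in the pancreas. *SPINK7*, a Kazal-type protease inhibitor, had 0 to 0.0632 CPM in the jejunum and 0.241, 1.70 and 19.9 CPM (lowest, median, highest) in the pancreas, with replicate 1 far above the other pancreatic libraries. *HPX*, hemopexin, the haem-binding plasma protein, had 0.0205 to 0.893 CPM in the jejunum and 6.17 to 18.9 CPM in the pancreas (-5.12 ± 0.81, adjusted p = 0.000147, edgeR).

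Of 7 tested redox enzymes, 2 were higher in the jejunum (34.4% of all genes), 4 higher in the pancreas (32.5% of all genes) and 1 was not called, with a median log2 fold change of -1.07 that turned to 0.44 with library totals, where 1 was higher in the pancreas, 3 were higher in the jejunum and 3 were not called. Among the 4 was *EPX*, eosinophil peroxidase, whose ranges overlapped and whose call (-1.07 ± 0.44, adjusted p = 0.0491, edgeR) held in 11 of the 25 fits that tested it. *DUOX2*, a dual oxidase that releases hydrogen peroxide, had 1.45, 0.484, 0.441, 0.452 and 1.05 CPM in the jejunum and 0.965, 2.66 and 6.75 CPM (lowest, median, highest) in the pancreas (-2.05 ± 0.50, adjusted p = 0.00323, edgeR). The ranges overlapped, and with library totals the difference was -0.43 and no longer called (adjusted p = 0.371). *DUOXA1L*, annotated as like a dual oxidase maturation factor, had 0 to 0.05 CPM in the jejunum and 0.130 to 3.68 CPM in the pancreas, without overlap (-5.51 ± 0.87, adjusted p = 8.86e-05, edgeR). Both the oxidase and the maturation factor gene thus sat on the pancreatic side with TMM scaling.

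*GPX2*, a glutathione peroxidase of the gut epithelium in mammals, had 3.88, 4.57, 5.66, 9.85 and 4.04 CPM in the jejunum and 1.17, 1.59 and 5.33 CPM (lowest, median, highest) in the pancreas, with overlap (1.32 ± 0.41, adjusted p = 0.0128, edgeR). *VNN2*, of the pantetheinase family, had 6.74 to 9.35 CPM in the jejunum and 0.687 to 2.60 CPM in the pancreas. *PTGS2* (chromosome 8, 10138921 to 10147005), the inducible prostaglandin synthase, was not told apart between the tissues: it had 21.2, 20.8, 27.9, 19.4 and 24.0 CPM in the jejunum and 9.43, 20.5 and 25.9 CPM (lowest, median, highest) in the pancreas (0.22 ± 0.23, adjusted p = 0.426, edgeR). A call appeared only when library totals were used (1.77, adjusted p = 3.07e-05).

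**Figure D4:**
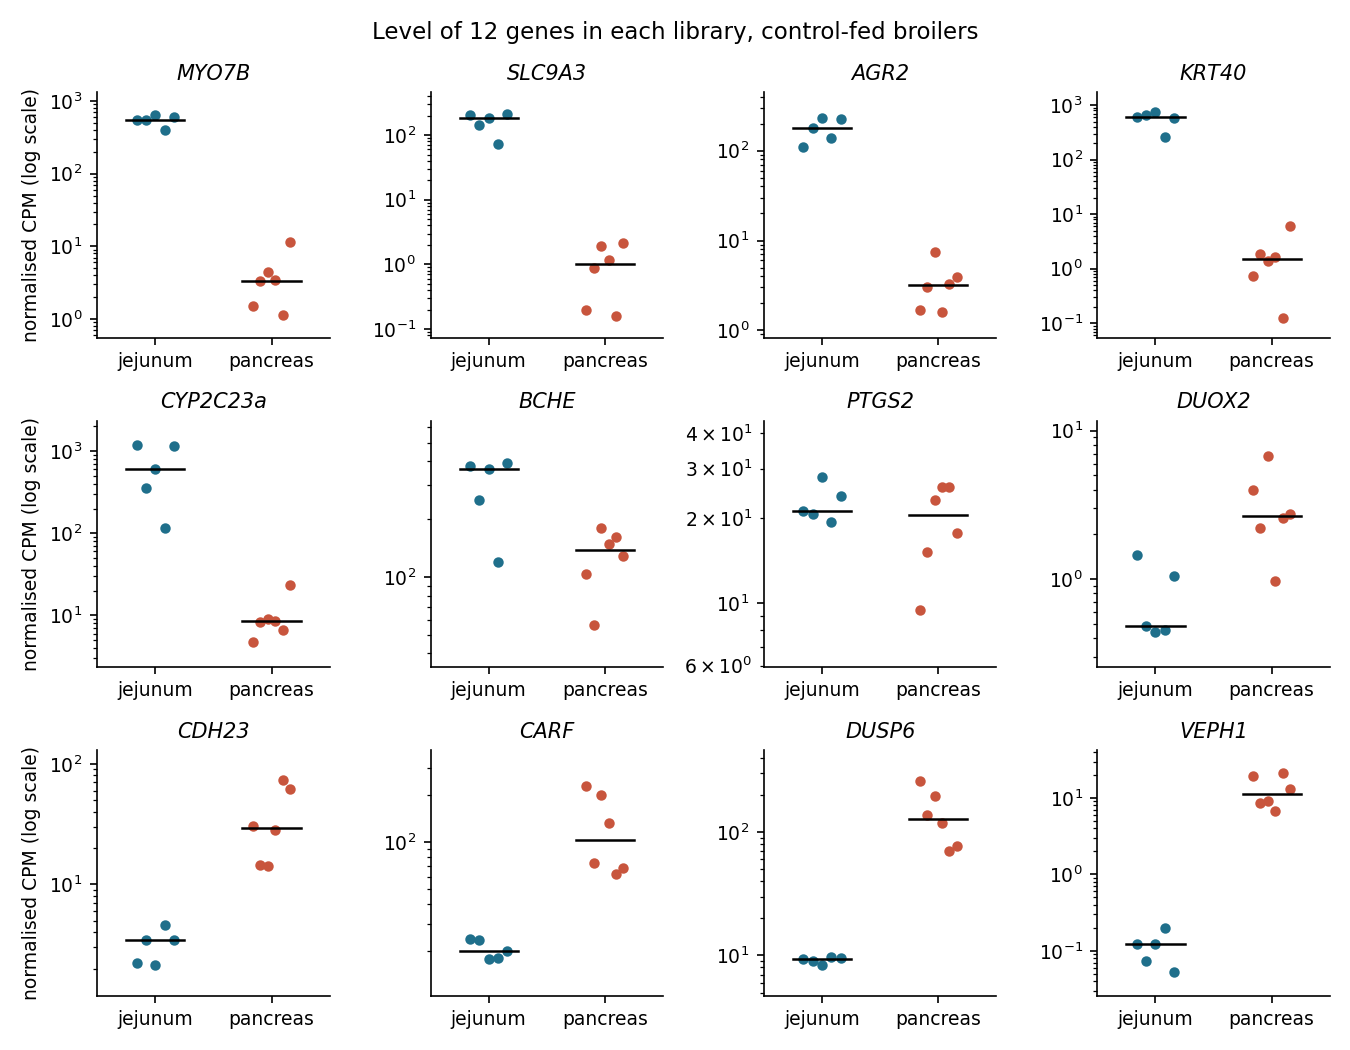
Normalised CPM (log axes, one scale per panel) of 12 genes in each library, with the 5 jejunal libraries left of the 6 pancreatic ones and the median as a bar. *MYO7B*, *SLC9A3*, *AGR2*, *KRT40* and *CYP2C23a* were far higher in the jejunum, *BCHE* and *DUOX2* overlapped, *PTGS2* did not pass the test, and *CDH23*, *CARF*, *DUSP6* and *VEPH1* were higher in the pancreas.

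A group of 6 genes held hormones, receptors and *POU1F1*, a pituitary transcription factor. Of these, 3 were higher in the jejunum (34.4% of all genes), 1 higher in the pancreas (32.5% of all genes) and 2 not called (5, 0 and 1 with library totals). *FFAR4*, a receptor for long-chain fatty acids, had 6.26, 8.82, 6.09, 3.32 and 4.88 CPM in the jejunum and 0.221, 0.272 and 0.557 CPM (lowest, median, highest) in the pancreas (4.14 ± 0.31, adjusted p = 3.77e-07, edgeR). *ROS1*, a receptor tyrosine kinase, had 135 to 380 CPM in the jejunum and 0.758 to 5.17 CPM in the pancreas. *SCTR*, the secretin receptor, was taken as a marker of pancreatic duct cells from mammals, yet it had 7.53, 5.20, 7.98, 6.04 and 8.63 CPM in the jejunum and 0.604, 1.18 and 2.07 CPM (lowest, median, highest) in the pancreas (2.48 ± 0.31, adjusted p = 2.25e-05, edgeR). *GHRL*, which encodes ghrelin and was listed with the hormones of the gut, went against its list too: it had 0.613, 0.558, 0.883, 0.840 and 0.934 CPM in the jejunum and 0.965, 2.15 and 4.20 CPM (lowest, median, highest) in the pancreas. The *GHRL* ranges did not overlap with TMM scaling (-1.75 ± 0.36, adjusted p = 0.000967, edgeR), but with library totals the difference was -0.11 (adjusted p = 0.739).

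Among signalling genes, the WNT ligands *WNT7A* and *WNT9A* were higher in the pancreas and *SOSTDC1*, a secreted BMP and WNT antagonist, was higher in the jejunum, with every scaling tried. *WNT9A* had 0.813, 1.37, 2.15, 1.12 and 1.84 CPM in the jejunum and 6.67, 8.69 and 11.0 CPM (lowest, median, highest) in the pancreas (-2.58 ± 0.26, adjusted p = 4.24e-06, edgeR). *WNT7A* had 0.0205 to 0.0526 CPM in the jejunum and 0.296 to 1.47 CPM in the pancreas. *SOSTDC1* varied little within the jejunum, with 5.75, 5.49, 6.89, 5.78 and 5.95 CPM, and had 0.0316, 0.233 and 0.324 CPM (lowest, median, highest) in the pancreas (4.68 ± 0.32, adjusted p = 1.98e-07, edgeR).

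*DUSP6* (chromosome 1, 43341540 to 43346237), a phosphatase that inactivates the kinase ERK, was one of 4 named genes with a mean of at least 100 CPM in the pancreas. Its level was 9.38, 9.01, 8.41, 9.71 and 9.55 CPM in the jejunum and 70.0, 128 and 259 CPM (lowest, median, highest) in the pancreas (-3.95 ± 0.34, adjusted p = 1.12e-06, edgeR). The jejunal libraries were nearly identical while the pancreatic ones spread widely. *CARF*, a calcium-responsive transcription factor, followed the same form, with 17.8 to 24.0 CPM in the jejunum and 63.0, 103 and 229 CPM (lowest, median, highest) in the pancreas. *PLEKHM3*, a pleckstrin homology domain protein, had 37.7 to 44.2 CPM in the jejunum and 52.7 to 182 CPM in the pancreas (-1.42 ± 0.34, adjusted p = 0.00324, edgeR), but its direction turned to 0.17 with library totals. All 3 of these genes were highest in pancreatic replicates 1 and 3. *CARF* (11598924 to 11635638) and *PLEKHM3* (11631766 to 11764483) overlap on chromosome 7. Because strand use in counting is not given, their values may not be separate observations.

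*VEPH1* (chromosome 9, 22411296 to 22465989), which encodes a pleckstrin homology domain protein and is on the study's jejunal list, was a pancreatic gene by level. It had 0.125, 0.0737, 0.123, 0.200 and 0.0526 CPM in the jejunum and 6.79, 11.1 and 21.0 CPM (lowest, median, highest) in the pancreas (-6.79 ± 0.46, adjusted p = 1.73e-07, edgeR). *FAM179A*, on the same list, had 1.23 to 5.86 CPM in the jejunum and 10.6 to 59.9 CPM in the pancreas. *ZNF804B*, a zinc finger gene, had 0 to 0.103 CPM in the jejunum and 2.41 to 5.33 CPM in the pancreas. *LOC768817* had 2 counts in all jejunal libraries together and 8923 in the pancreatic ones, a ratio of 6030 in favour of the pancreas with a 95% counting interval of 1670 to 49800 (exact Poisson, too narrow if both mates of a pair were counted). Its pancreatic counts came mostly from replicates 4 and 6, with 53.6 and 54.9 CPM against 0.273 to 1.48 CPM in the others, and it was called in edgeR (adjusted p = 8.15e-05) but not in limma-voom (adjusted p = 0.055).

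*CKMT1B*, the mitochondrial creatine kinase of epithelium and brain in mammals, had 72.1 to 104 CPM in the jejunum and 0.918 to 5.32 CPM in the pancreas, and *TTN*, titin of muscle, 18.2 to 35.4 CPM in the jejunum and 5.43 to 10.3 CPM in the pancreas. *MYH7*, a myosin heavy chain, was called higher in the pancreas at under 1.2 CPM in every library (-1.04 ± 0.38, adjusted p = 0.0278, edgeR), and turned to 0.46 with library totals. In the groups of regulatory and immune genes, *EHF*, an epithelial ETS factor, was the clearest jejunal gene, with 78.1, 72.2, 90.6, 104 and 96.1 CPM in the jejunum and 1.36, 2.17 and 3.77 CPM (lowest, median, highest) in the pancreas (5.14 ± 0.26, adjusted p = 1.64e-08, edgeR). The group of 7 tested transcription factors and DNA-binding proteins left out *POU1F1*, which was counted with the hormone and receptor genes. In this group *EHF* alone was higher in the jejunum, whereas 4 were higher in the pancreas and 2 were not called (2 and 4 with library totals). Of all genes, 34.4% were called higher in the jejunum and 32.5% in the pancreas. Of 6 tested immune genes, 3 were higher in the jejunum (34.4% of all genes) and 0 in the pancreas (32.5% of all genes). The other 3 were not called, *MHCY6* among them. With library totals 5 were higher in the jejunum and 0 in the pancreas. With upper-quartile factors 1 was higher in each tissue, and with DESeq2 size factors 3 were higher in the jejunum and 1 in the pancreas.

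Some named genes had no firm tissue pattern or were uneven within the jejunum. *LOC107052718* was called higher in the jejunum (3.57 ± 1.26, adjusted p = 0.025, edgeR), but jejunal replicate 5 had 43.8 CPM against 0.189 to 1.12 CPM in the other jejunal and 0.189 to 1.90 CPM in the pancreatic libraries, and without that library the difference was -0.043 (adjusted p = 0.955). *GATD3AL2*, ranked 7 among all genes called higher in the jejunum by fold, was also uneven there (192, 226, 563, 82.8 and 451 CPM), yet stayed between 0.126 and 0.563 CPM in the pancreas (9.83 ± 0.66, adjusted p = 1.56e-07, edgeR). *SNPH*, *POU1F1* and *RBP4A*, a syntaphilin, a pituitary transcription factor and a retinol-binding protein, did not pass the test (0.38, 1.13 and -0.48), and each was called with library totals (1.90, 2.65 and 1.11), *RBP4A* with its direction turned.

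Traces of the jejunal genes in the pancreas varied between its libraries. The 27 named genes at least 10-fold higher in the jejunum summed to 3921 to 7821 CPM, here with library totals as the base, in the jejunum. In the pancreas the sums were 14.7, 41, 27.7, 26.7, 12.9 and 59.3 for replicates 1 to 6, and for 13 of the 27 genes the highest pancreatic value was in replicate 6, the deepest library. In the reverse direction, the 14 named genes at least 10-fold higher in the pancreas summed to 20.4 to 34.4 CPM in the jejunum and 92.4 to 194 in the pancreas. Whether material from a neighbouring tissue has a part in these values was not tested. Without pancreatic replicate 6, 4804 genes were called higher in the jejunum and 4537 higher in the pancreas.

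The tissue comparison could be repeated in the SB-fed broilers, which share no library with the control-fed ones. There 4959 of 14878 genes (33.3%) were higher in the jejunum and 5137 (34.5%) in the pancreas, by the same test. Of the 9730 genes called in the control-fed broilers and tested in both, 8782 (90.3%, where 67.9% of all genes were called with SB) were called in the same direction with SB, 1 in the opposite direction and 947 were not called. Among the 1109 with at least a 10-fold difference, 1097 (98.9%) were repeated. Of the 83 named genes, which were picked for a difference between the diets, 60 (72.3%) were repeated, 1 was called in the opposite direction and 22 were not called. Among those 22 were *SLC9A4*, *VNN2*, *TTN* and *GPX2*, higher in the jejunum on the control diet. With SB they had 0.87, 0.16, 0.34 and 0.11 (adjusted p = 0.302, 0.732, 0.68 and 0.86, edgeR). *GATD3AL2*, *MYO7B* and *AGR2* had smaller log2 fold changes with SB, 6.67, 5.23 and 3.90, than on the control diet, 9.83, 7.03 and 5.66. They are on the study's list of genes higher with SB in the pancreas, chosen on the same control pancreas libraries. *CDH23*, on that list but higher in the pancreas, had -5.06 with SB and -3.54 on the control diet.

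The single gene with opposite calls was *TFF3*, whose call in control-fed broilers was lost in the settings given above, with a log2 fold change of -1.58 (adjusted p = 0.0135, edgeR) in SB-fed and 1.26 in control-fed broilers. *SPTSSB*, a subunit of serine palmitoyltransferase in sphingolipid synthesis, had a log2 fold change of -0.70 (adjusted p = 0.28) in SB-fed and 2.09 ± 0.24 (SE, adjusted p = 1.21e-05, edgeR) in control-fed broilers, where it had 2.65 to 6.02 CPM in the jejunum and 0.663 to 1.31 CPM in the pancreas. *SCN3B* had -0.05 (adjusted p = 0.858), *BCHE* -0.09 (adjusted p = 0.877) and *WNT9A* 0.87 (adjusted p = 0.513) with SB. The tissue difference itself was tested for a change with diet in one fit over all 22 libraries: 0 of 15032 genes (0%) passed in edgeR, where 521 (3.47%) had an unadjusted p under 0.05 and the smallest adjusted p was 1, limma-voom also called 0 and DESeq2 called 1. *TFF3* and *SPTSSB* had unadjusted p = 0.000895 and 0.000476 in that edgeR test, and both had an adjusted p of 1. *TFF3*, *SPTSSB*, *SCN3B* and *BCHE* are on the study's list of genes higher with SB in the pancreas, and *WNT9A* is on its jejunal list. Both lists were chosen on libraries that enter this test, so the values of these genes are no independent measure.

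**Figure D5:**
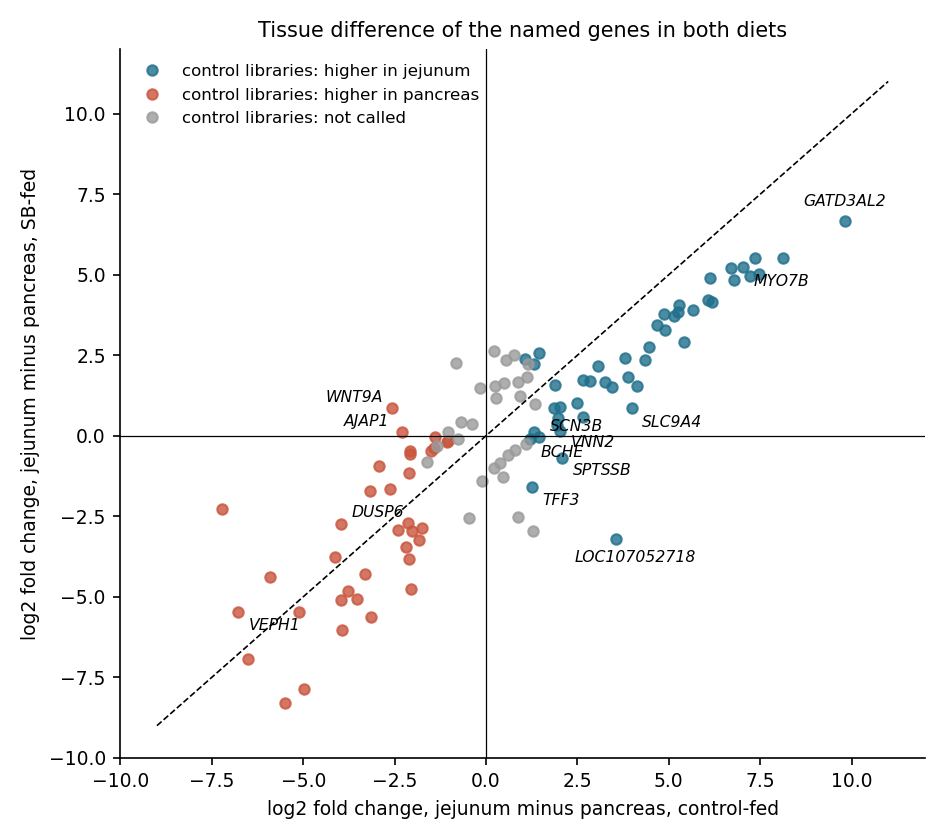
Log2 fold change, jejunum minus pancreas, of the named genes in SB-fed broilers (vertical) against control-fed broilers (horizontal), coloured by the call in control-fed broilers; the dashed line marks equal values. Values in brackets are for SB-fed and control-fed broilers. *GATD3AL2* (6.67 and 9.83) and *MYO7B* (5.23 and 7.03) stayed higher in the jejunum, with smaller values in SB-fed broilers. *TFF3* (-1.58 and 1.26) and *SPTSSB* (-0.70 and 2.09) had opposite signs.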

How the data were processed

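RNA-seq libraries of jejunum and pancreas were compared by tissue as labelled. The authors used Trimmomatic, then STAR on GRCg7b and HTSeq for counting by gene, and deposited raw counts (used here) and normalised log2 values (not used). Libraries followed a stranded mRNA protocol, but strand use, multi-mapping and mates in counting are not given in the sources used here, so overlapping genes and near copies are uncertain. Between 62.7% and 69.4% of low counts were even, and whether both mates of a pair were counted is not known: if they were, counting intervals and floors are too narrow and too low. At best they cover counting error only, and totals far above the study's clean reads leave the size of that error uncertain.

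Genes passing filterByExpr (minimum count 10, minimum total 15) were scaled by TMM and tested with the quasi-likelihood test of edgeR 4.0.16 (legacy = FALSE) in R 4.3.3. SE is the size of the log2 fold change divided by the square root of F. Alternatives used DESeq2 1.42.0, limma 3.58.1, other scalings, filters and thinning, a replicate block, and each library left out. In simulated data of 13491 genes, 95 of 100 2-fold and 100 of 100 4-fold changes were called, with 7 unchanged genes. Both simulated tissues had the mean composition of the jejunum and the same spread for every gene. The simulation therefore does not cover the unlike composition of the real tissues or a change in most genes. No library copied another (smallest chi-square 50.2 per gene).

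The labels do not say that replicates are separate broilers, though by the study's methods 1 broiler was sampled from each pen. The p-values measure the spread between these libraries. Symbols were inferred by matching the log2 fold changes and P-values of the study's supplementary lists to 3 decimals: 41 of 41 and 123 of 125 entries matched 1 identifier, and all 11 and 30 entries given by identifier fell on themselves. RefSeq places come from the symbol. Named genes are the linked genes the study discusses, those of highest level or largest change in each role group, and the most and least different genes. Members and lists were chosen with earlier results of these data known, and the repeat in SB-fed broilers was added after the data were seen. Sequences and promoter motifs were not analysed here.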

Additional observations from a re-analysis of the deposited data

Results flagged for a closer look

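A library far from the others of its tissue (Dixon's test at the 95% level) was sought in 146 groups of 5 or 6 libraries. Such a library was found in 18 groups, or 12.3%. The nominal rate of 1 in 20 holds for independent, normally distributed values. These groups reuse the same libraries, mostly with CPM not on a log scale, so the 2 rates cannot be compared. Jejunal replicate 4 was the odd library in composition: its 10 most abundant genes took 3.77% of the counts (others 6.04% to 6.91%), and it needed 1268 genes for 50% (others 991 to 1039) and 6013 genes for 90% of the counts (others 5545 to 5595). *TFF3* was high in jejunal replicate 2, at 2.17 CPM against 0.368 to 0.663 CPM. In jejunal replicate 5, *LOC107052718* had 43.8 CPM (others 0.189 to 1.12) and *AvBD10* 0.211 CPM (others 0 to 0.05).

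Pancreatic replicate 6 had the largest total, 166039437 counts (others 65957320 to 81473749). The same library was high for 4 jejunal genes: *MYO7B* with 11.4 CPM (others 1.14 to 4.37), *KRT40* with 6.13 CPM (others 0.126 to 1.87), *CYP2C23a* with 23.6 CPM (others 4.69 to 9.04) and *CA7* with 5.31 CPM (others 0.496 to 1.29). *LOC107052718*, with 1.9 CPM (others 0.189 to 0.802), was high in it too.

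In pancreatic replicate 3, *SLC9A4* had 0.802 CPM (others 0.0742 to 0.343), *DUOXA1L* 3.68 CPM (others 0.13 to 1.34) and *WNT7A* 1.47 CPM (others 0.296 to 0.663). Pancreatic replicate 4 was high for *GPX2*, with 5.33 CPM (others 1.17 to 2.37), and low for *VNN2*, with 0.687 CPM (others 1.95 to 2.60). *SPINK7* had 19.9 CPM in pancreatic replicate 1 and 0.241 to 3.03 CPM in the others.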

How the results depend on the processing

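The 4 counts of genes higher in either tissue were within 1.5 times their main value under every alternative but library totals, which gave 11472 and 940 genes higher in jejunum and pancreas and 10127 and 726 with a 2-fold difference. With each library left out in turn these counts were 4804 to 5023, 4468 to 4705, 2864 to 3084 and 2582 to 2741, the difference in the top 10 share -51.1 to -49.0 percentage points, the log2 ratio of genes holding 50% of the counts 6.91 to 7.03, and genes with a tissue difference that changed with diet 0 to 0. DESeq2 called 1 such gene.

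Library totals turned the direction of *CFAP100* to 1.35, *CGTL* to 0.10, *EPX* to 0.44, *KCND3* to 1.37, *LOC107057295* to 1.19, *LOC121106936* to 0.0431, *MYH7* to 0.46, *PLEKHM3* to 0.17, *RBP4A* to 1.11 and *SLC12A5* to 0.89. *LOC107052718* was -0.0430 without jejunum control replicate 5 and 4.11 without pancreas control replicate 6, the extremes over the libraries left out.

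Column names share the numbers 9, 17, 32, 39 and 47 between tissues. Deviations from the tissue mean correlated by 0.132, 0.358, 0.003, -0.001 and -0.005 for same-numbered libraries. Different tissues of 1 broiler need not deviate alike, so these values cannot tell whether the number pairs the libraries. The main fit and the permutation tests ignore any such pairing. With it as a replicate block, 8919 genes were called (4726 and 4193 by tissue; 2901 and 2473 with a 2-fold difference). With the number of the titles as the block, 8885 were called (4743 and 4142; 2977 and 2411).

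Only 121 of 17007 genes had a symbol, and at under 0.5 CPM a gene such as *GAL3ST2* had too few counts for a firm comparison.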
